A study of Mus musculus with 6 samples.

Results

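The genes through which myostatin and activins signal in skeletal muscle were measured in fast-twitch muscle of Rpt3-/- mice, in which a subunit of the proteasome is deleted in muscle fibers, and of Rpt3+/+ mice. The set was given as 10 gene symbols (Mstn, Fst, Fstl1, Fstl3, Acvr2a, Acvr2b, Acvr1b, Smad2, Smad3 and Smad7) and was matched by symbol to the probes of a mouse whole-genome array. A named probe was found for 9 of the 10 genes, all 9 passed the filter on dim probes, and these stand among 14731 genes tested and 18562 genes named on the arrays. Smad7, which encodes an inhibitor of the receptors and of Smad2 and Smad3, was not analysed here because no probe carried its name in the annotation used.

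The knockout mice were labelled Rpt3 null and carried floxed Rpt3 alleles together with Mlc1f-Cre, a transgene that expresses Cre recombinase from the promoter of the fast myosin light chain gene and acts in skeletal muscle but not in the heart. The comparison mice were labelled control. The labels give both groups the strain mlc1f-Cre/ Rpt3-floxed, whereas the text of the study describes the controls as Mlc1f-Cre mice with unfloxed Rpt3, so that Cre was shared by both groups. All mice were female and 6 weeks old, with 3 mice per group and total RNA of each mouse on 1 single-color CodeLink array. The labels name the tibialis anterior muscle and the text of the study names the gastrocnemius for its microarrays, and both are fast-twitch-dominant. Cre-mediated excision in this line is incomplete, and macrophages, fibroblasts, vessels and other cells of the muscle keep Rpt3.

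Myostatin is a secreted member of the TGF-beta family that is made chiefly by skeletal muscle and limits its growth. Myostatin and activins bind a type II receptor, ActRIIA or ActRIIB, which recruits and phosphorylates a type I receptor such as ALK4. The type I receptor phosphorylates Smad2 and Smad3, which enter the nucleus with Smad4 and regulate transcription. Follistatin and its relatives bind the ligands outside the cell and keep them from the receptors.

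The markers of the labelled tissue were present: all 9 measured fast-twitch fiber markers were above background on all 6 arrays. Between 69.2% and 72.7% of transcript probes were above background in Rpt3-/- muscle and between 57.0% and 74.5% in Rpt3+/+ muscle, where replicate 2 was the dimmest of all 6. Array profiles correlated at r = 0.943 to 0.983 within groups and at 0.901 to 0.946 between them. The deleted gene, listed under its symbol Psmc4, gave 10.01, 9.78 and 9.85 (log2 intensity) with its brighter probe in Rpt3-/- muscle and 11.16, 10.91 and 11.06 in Rpt3+/+ muscle, 2.24-fold lower in Rpt3-/- muscle. Its dimmer probe, at or near background, differed by -0.23. No source used here places these probes relative to the deleted exons, so they are a limited check of the labels.

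In Rpt3-/- muscle the transcript of myostatin itself fell 3.07-fold and that of its receptor Acvr2b fell 1.41-fold. That of the transducer Smad3, detected above background in Rpt3+/+ muscle alone, was also lower, with an untested bound of 1.47-fold on its group means. No gene of the set passed the test in the upward direction. Of the 9 measured genes, 3 were lower at an adjusted p under 0.05 (limma with Benjamini-Hochberg adjustment over all 14731 genes), 0 were higher and 6 did not pass. This is 33.3% lower with Smad3 counted, where 6.56% of all tested genes were lower (967 genes) and 12.7% were higher (1870 genes). Smad3, 1 of the 3, passed the filter on dim probes only through the Rpt3+/+ arrays. With signal required on all 6 arrays Smad3 was not tested, 2 of the 8 remaining members were lower, and 1027 of 12153 genes were lower. Centring arrays on their median in place of quantile normalization gave 602 genes lower and 2555 higher, and scaling to the beta-actin gene Actb gave 10328 lower and 329 higher. Without adjustment 1 gene of the set, Fst, was higher by limma, and 1 was higher by the test named in the methods of the study, against 0 by that test after adjustment. The groups did not overlap for 5 of the 9 genes: Fst lay above in Rpt3-/- muscle, and Mstn, Acvr2a, Acvr2b and Smad3 lay below. Over all genes 36.8% did not overlap, 21.2% above and 15.6% below. The median log2 difference, Rpt3-/- minus Rpt3+/+, was -0.23 over the 9 genes and -0.01 over all tested genes. Because the set was chosen with results of these arrays known, its share was not tested against other genes.

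**Figure D1:**
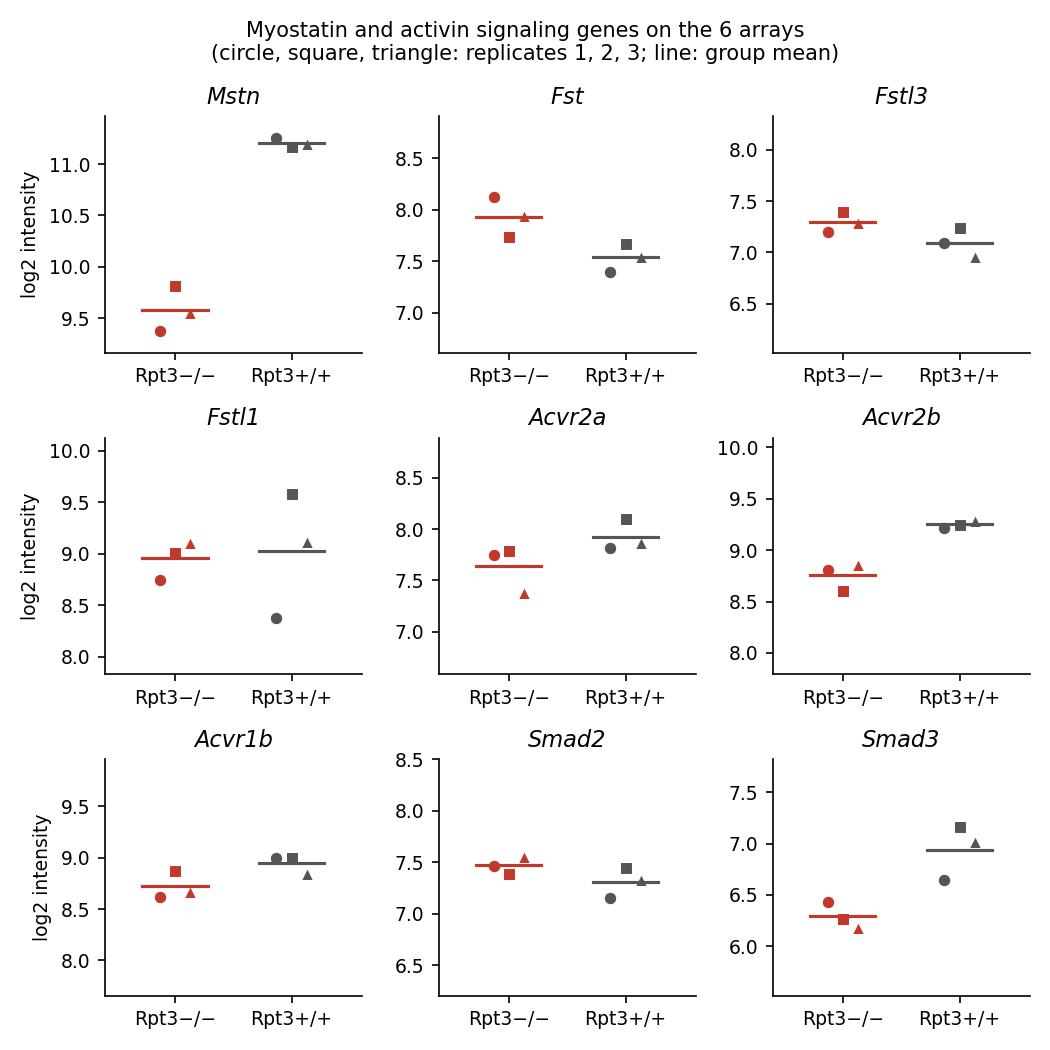
Normalized log2 intensity (vertical axis) of the 9 measured genes on each array, Rpt3-/- (red) left of Rpt3+/+ (grey), with circles, squares and triangles for replicates 1, 2 and 3 and a line at each group mean. Every panel spans the same number of log2 units; Mstn shows the widest gap, with Rpt3-/- arrays between 9.38 and 9.82 and Rpt3+/+ arrays between 11.16 and 11.25.

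Mstn, the gene for myostatin, lies on chromosome 1. Its log2 intensity was 9.38, 9.82 and 9.55 on the 3 Rpt3-/- arrays, against 11.25, 11.16 and 11.19 on the 3 Rpt3+/+ arrays. The 2 groups stood far apart, and the spread within Rpt3-/- muscle was wider than within Rpt3+/+ muscle (SD 0.22 and 0.04, n = 3 each). Before normalization the background-subtracted intensities were 683, 946 and 798 in Rpt3-/- muscle and 2474, 1581 and 1980 in Rpt3+/+ muscle, again without overlap. Mstn fell by 1.62 on the log2 scale (SE 0.14; 95% confidence interval -1.93 to -1.30; adjusted p = 8.03e-05, limma), or 3.07-fold. Counted from the most negative difference, it ranked 23 of 14731 tested genes. In whole-muscle RNA, fewer cells that make a transcript and less of it per cell cannot be told apart. The study itself reported more myostatin protein in Rpt3-/- gastrocnemius by immunoblot, the opposite direction to this transcript. The array labels name the tibialis anterior, so protein and transcript may come from different muscles. The study gives no mouse age beside that immunoblot. Why protein and transcript differed in direction was not tested.

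The fall of Mstn stood beside changes in fiber-type and other cell markers, whose part in it was not tested. Myostatin is made more in fast-twitch than in slow-twitch fibers. Of 9 fast-twitch markers 1 was lower (Actn3, -0.64) and 1 was higher (Myh1, 0.70), with a median difference of -0.21, and their summed level ranged from 173868 to 175624 in Rpt3-/- muscle and from 180660 to 194493 in Rpt3+/+ muscle (linear normalized intensity). Of 7 slow-twitch markers 5 were higher and 0 lower, with summed levels of 22015 to 22817 in Rpt3-/- muscle and 14315 to 17511 in Rpt3+/+ muscle. Of 6 general fiber markers 1 was lower (Myoz1, -0.54) and 0 higher. The 5 of them with a value on every array summed to 56443 to 65804 in Rpt3-/- muscle and 65191 to 67937 in Rpt3+/+ muscle, ranges that overlapped at their ends. The sixth, Acta1, was saturated, and on Rpt3+/+ replicate 3 its spot carried a contamination flag and was left out. The summed fast-twitch markers lay lower in Rpt3-/- muscle and the summed slow-twitch markers higher, both without overlap. Several fast-twitch markers lay near the top of the normalized scale, which limits what their sum can resolve. Atp2a1 on Rpt3+/+ replicates 1 and 3 and Tnnc2 on Rpt3-/- replicate 1 shared the value 14.86.

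Markers of several other cell types were higher as well. Of 7 measured macrophage markers of 12 listed, 5 were higher and 0 lower (summed level 5572 to 8133 in Rpt3-/- muscle, 2082 to 2436 in Rpt3+/+ muscle), while Ptprc, Itgam and Adgre1 were not above background on enough arrays to be tested. Of 10 markers of fibroblasts and fibro-adipogenic progenitors, 3 were higher and 0 lower (29828 to 31530 in Rpt3-/- muscle, 20497 to 24077 in Rpt3+/+ muscle). Of 7 measured markers of satellite cells and regenerating fibers, 3 were higher and 0 lower (4606 to 7047 in Rpt3-/- muscle, 1838 to 2219 in Rpt3+/+ muscle), and Pax7 was too dim to be tested. Both measured adipocyte markers were higher, with summed levels of 2395 to 2999 in Rpt3-/- muscle and 686 to 1453 in Rpt3+/+ muscle. Of 5 endothelial markers none passed the test, and their summed levels were 1249 to 1325 in Rpt3-/- muscle and 1228 to 1795 in Rpt3+/+ muscle. The part of these cells in the results below was not tested.

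The upstream sequences of the 3 genes that fell are shown because the promoter of a muscle-restricted gene and those of widely used receptor and transducer genes differ in composition. E-boxes (CANNTG, the same on both strands) are the motif of MyoD and the other myogenic helix-loop-helix factors, and are in capitals. Each sequence runs 5' to 3' on the strand of the gene and holds the 250 bases before the annotated start, from RefSeq on build GRCm38.p6. Mstn is at chr1:53061390-53061639 (plus strand), Acvr2b at chr9:119401928-119402177 (plus strand) and Smad3 at chr9:63757995-63758244 (minus strand).
Mstn: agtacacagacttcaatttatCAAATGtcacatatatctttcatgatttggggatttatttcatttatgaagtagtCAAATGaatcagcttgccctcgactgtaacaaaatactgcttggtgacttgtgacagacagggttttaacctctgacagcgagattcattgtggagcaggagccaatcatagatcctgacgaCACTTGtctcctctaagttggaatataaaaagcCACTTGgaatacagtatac
Acvr2b: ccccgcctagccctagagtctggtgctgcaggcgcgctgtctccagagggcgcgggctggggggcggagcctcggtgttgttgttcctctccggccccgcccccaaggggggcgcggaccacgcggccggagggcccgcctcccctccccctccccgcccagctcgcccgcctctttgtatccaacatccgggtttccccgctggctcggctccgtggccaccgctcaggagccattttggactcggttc
Smad3: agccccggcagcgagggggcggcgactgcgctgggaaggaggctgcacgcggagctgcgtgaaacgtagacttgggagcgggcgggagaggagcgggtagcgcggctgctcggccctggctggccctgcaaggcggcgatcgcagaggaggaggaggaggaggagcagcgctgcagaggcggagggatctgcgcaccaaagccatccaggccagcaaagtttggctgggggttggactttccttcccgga
The Mstn window holds 4 E-boxes, with first bases 229, 174, 52 and 19 before the start, and a TATAAA run whose first base is 29 before the start. The Acvr2b and Smad3 windows hold 0 E-boxes. Of 32536 mouse promoters of the same length, 66.2% hold at least 1 E-box, 3.83% hold 4 or more and 12.3% hold TATAAA on either strand. The 5-letter Smad-binding motif CAGAC, searched on both strands, occurs 2 times in Mstn, 1 time in Acvr2b and 0 times in Smad3, and in 42.2% of the same promoters. The share of G and C is 38.4% in Mstn, 72.8% in Acvr2b and 69.2% in Smad3. These matches describe the letters only.

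Among the extracellular antagonists of myostatin and activins, none of 3 passed the test. Fst encodes follistatin, which binds activins and myostatin with high affinity, and lies on chromosome 13. Its log2 intensity was 8.12, 7.73 and 7.94 in Rpt3-/- muscle and 7.40, 7.67 and 7.54 in Rpt3+/+ muscle. All 3 Rpt3-/- values were above all 3 Rpt3+/+ values, by a narrow margin between the nearest pair. The difference was 0.39 (SE 0.14; 95% confidence interval 0.07 to 0.72; adjusted p = 0.0856, limma; unadjusted p = 0.0209). It passed with median centring (0.45, adjusted p = 0.0477), with array weights (0.36, adjusted p = 0.0266) and without Rpt3+/+ replicate 2 (adjusted p = 0.0474). Scaling all arrays to Actb was done after median centring, where Actb itself differed by 0.77 (0.45 in the reported fit). This scaling turned the Fst difference to -0.32, where the median of all genes moved to -0.72.

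Fstl3 encodes a follistatin-like protein that also binds both ligands and lies on chromosome 10. Its brighter probe gave 7.20, 7.39 and 7.28 in Rpt3-/- muscle and 7.09, 7.23 and 6.95 in Rpt3+/+ muscle, with overlapping groups. The difference was 0.20 (95% confidence interval -0.09 to 0.49; adjusted p = 0.339, limma). A second Fstl3 probe differed by 0.23 and was above background on 3 Rpt3-/- arrays and 2 Rpt3+/+ arrays. With Actb scaling the Fstl3 difference was -0.56.

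Fstl1, on chromosome 16, encodes a secreted glycoprotein related to follistatin that muscle and connective tissue cells make. It gave 8.75, 9.01 and 9.11 in Rpt3-/- muscle and 8.38, 9.58 and 9.11 in Rpt3+/+ muscle. The Rpt3+/+ values spanned those of Rpt3-/- muscle (SD 0.19 in Rpt3-/-, 0.61 in Rpt3+/+), and the highest came from the dimmest array. The difference was -0.07 (95% confidence interval -0.64 to 0.51; adjusted p = 0.889, limma), an interval wide enough that a moderate change of either sign was not resolved.

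Of the 3 receptors, 1 fell and 2 did not pass. Acvr2b encodes ActRIIB, the type II receptor that binds myostatin most tightly, and lies on chromosome 9. Its log2 intensity was 8.80, 8.60 and 8.86 in Rpt3-/- muscle and 9.22, 9.24 and 9.29 in Rpt3+/+ muscle, without overlap and with tightly grouped Rpt3+/+ arrays. It fell 1.41-fold (log2 difference -0.50, SE 0.13; 95% confidence interval -0.78 to -0.21; adjusted p = 0.0211, limma). The call was lost without Rpt3-/- replicate 1 (-0.51, adjusted p = 0.0578), without Rpt3-/- replicate 2 (-0.42, adjusted p = 0.0898), without Rpt3+/+ replicate 3 (-0.48, adjusted p = 0.105) and with median centring (-0.34, adjusted p = 0.127).

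Acvr2a encodes ActRIIA, the other type II receptor of activins and myostatin, on chromosome 2. It gave 7.75, 7.79 and 7.38 in Rpt3-/- muscle and 7.82, 8.09 and 7.86 in Rpt3+/+ muscle. The groups did not overlap, yet the nearest values were almost equal, and the difference of -0.29 did not pass (95% confidence interval -0.62 to 0.05; adjusted p = 0.229, limma). Acvr1b encodes ALK4, the type I receptor that activins and myostatin share, on chromosome 15. It gave 8.62, 8.87 and 8.67 in Rpt3-/- muscle and 8.998, 8.998 and 8.84 in Rpt3+/+ muscle, with overlap, and differed by -0.23 (95% confidence interval -0.52 to 0.06; adjusted p = 0.270, limma). The point differences of the 3 receptors had the same sign, and only that of Acvr2b passed the test; whether the receptors differ from each other was not tested.

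Smad3 encodes a transducer that receptors phosphorylate and that binds DNA directly, and lies on chromosome 9. Its log2 intensity was 6.44, 6.27 and 6.18 in Rpt3-/- muscle and 6.65, 7.17 and 7.01 in Rpt3+/+ muscle. The groups did not overlap, and the probe was well above background on 0 of 3 Rpt3-/- arrays and on 3 of 3 Rpt3+/+ arrays. It passed the filter on dim probes only through the Rpt3+/+ arrays and was not tested when signal was required on all 6. The fitted Smad3 difference was -0.65 (adjusted p = 0.0170, limma). As a bound on the group means that was not itself tested, its level was 1.47-fold lower or more in Rpt3-/- muscle. This bound leaves out the spread between arrays, and the confidence interval of the fitted difference reaches smaller changes. The bound sets the Rpt3+/+ mean of 6.94 against 6.39. The latter is the mean over the Rpt3-/- arrays of the lowest signal above background or of the Smad3 signal where that was higher. The measured Rpt3-/- mean was 6.29. The call was lost without Rpt3-/- replicate 2 (-0.63, adjusted p = 0.0592), without Rpt3-/- replicate 3 (-0.59, adjusted p = 0.0769) and without Rpt3+/+ replicate 3 (-0.62, adjusted p = 0.0842).

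Smad2 encodes the second receptor-activated Smad of this branch, on chromosome 18. It gave 7.47, 7.39 and 7.55 in Rpt3-/- muscle and 7.15, 7.44 and 7.32 in Rpt3+/+ muscle, with overlap. Its difference of 0.16 did not pass (95% confidence interval -0.13 to 0.45; adjusted p = 0.436, limma). The measured Smad2 and Smad3 differences had opposite signs, and a difference between the 2 genes was not tested. With Actb scaling Smad2 was at -0.58.

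**Figure D2:**
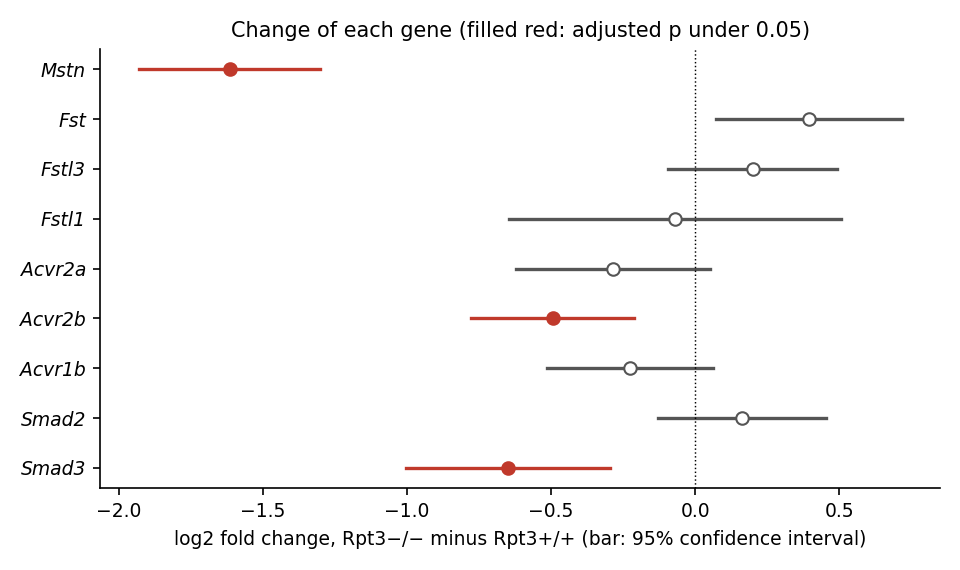
Log2 fold change, Rpt3-/- minus Rpt3+/+ (horizontal axis), of the 9 measured genes with 95% confidence intervals as bars; filled red circles passed an adjusted p of 0.05 in limma and open circles did not. Mstn is farthest from 0 at -1.62, and the Smad3 value of -0.65 is drawn as fitted although its Rpt3-/- probe signal was not well above background.

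Mstn kept its call under all 19 other ways of processing the arrays, with differences between -2.14 and -1.37. Leaving out 1 array at a time gave -1.74 to -1.50. The number of members called lower was 3 in the reported fit and between 1 and 3 when 1 array was left out. It was 1, Mstn alone, without Rpt3-/- replicate 2 or without Rpt3+/+ replicate 3. Calls fell over all genes as well: 967 were lower in the reported fit, 649 without Rpt3-/- replicate 2 and 389 without Rpt3+/+ replicate 3.

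**Figure D3:**
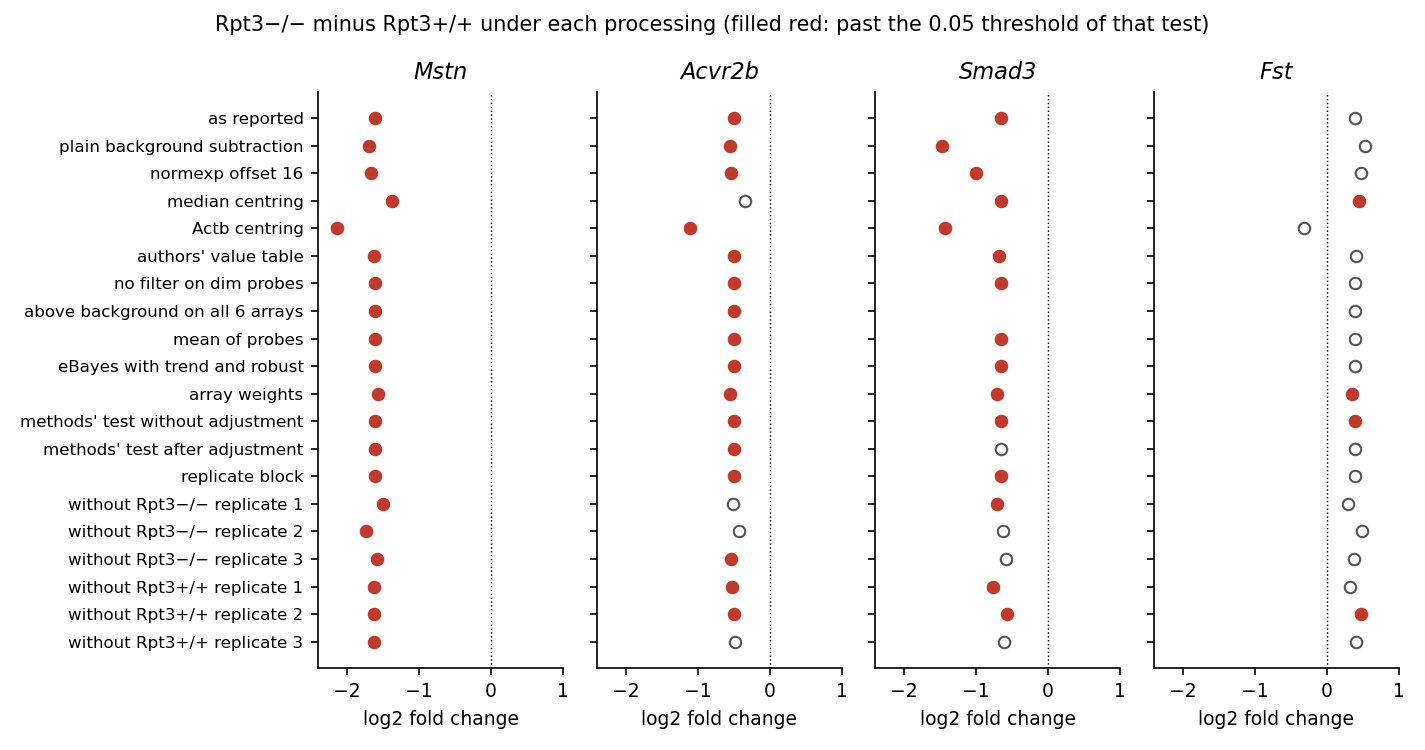
Log2 fold change, Rpt3-/- minus Rpt3+/+ (horizontal axis), of Mstn, Acvr2b, Smad3 and Fst under the reported processing and 19 alternatives (rows), filled red where the 0.05 threshold of that test was passed. Mstn is filled in every row, Acvr2b is open in 4 rows, Smad3 is open in 4 rows and absent where its probe had to be above background on all 6 arrays, and Fst lies left of 0 with Actb centring.

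Across the 6 arrays the members tracked Mstn to different degrees. Pearson's r with Mstn was 0.897 for Acvr2b, 0.842 for Smad3, 0.840 for Acvr1b and 0.679 for Acvr2a, and -0.894 for Fst, -0.693 for Smad2, -0.643 for Fstl3 and 0.0903 for Fstl1. The arrays form 2 groups of 3, so these values mostly restate the difference between genotypes. The 5 genes outside the set with profiles most like Mstn were Setmar (r = 0.999), Tmem70 (0.998), Sgca (0.997), Mtus1 (0.997) and Micall2 (0.997). Sgca encodes alpha-sarcoglycan of the dystrophin complex, and its log2 difference was -0.66. Mtus1 was at -1.06, Micall2 at -1.21 and Setmar at -0.37. Likeness to Mstn on these arrays fixes the direction of these differences, which are given as a description.

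The surrounding activin and TGF-beta pathway was described with 56 further genes, of which 46 were tested. Of these 6 were higher (13.0%), 4 were lower (8.70%) and 36 did not pass, with a median difference of 0.04. These shares lie near the 12.7% higher and 6.56% lower over all tested genes. The groups did not overlap for 15 of the 46 genes, 10 above and 5 below in Rpt3-/- muscle, where 36.8% of all genes did not overlap.

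Of 7 other ligands 1 was lower and 1 higher. Inhba encodes the beta-A subunit of activin A, which shares its receptors with myostatin. It gave 7.75, 7.91 and 8.25 in Rpt3-/- muscle and 8.66, 8.47 and 8.57 in Rpt3+/+ muscle, without overlap. Inhba fell by 0.59 on the log2 scale (adjusted p = 0.0216, limma), and the call was lost without Rpt3-/- replicate 1 (-0.48, adjusted p = 0.0955), without Rpt3-/- replicate 2 (-0.56, adjusted p = 0.0740), without Rpt3+/+ replicate 3 (-0.60, adjusted p = 0.0875) and with median centring (-0.50, adjusted p = 0.0604). Tgfb1, the gene for TGF-beta1, gave 7.77, 7.24 and 7.41 in Rpt3-/- muscle and 6.83, 6.76 and 6.85 in Rpt3+/+ muscle and rose by 0.66 (adjusted p = 0.0130, limma), though not without Rpt3+/+ replicate 3 (0.69, adjusted p = 0.0547) and at -0.10 with Actb scaling. Its probe was above background on 3 Rpt3-/- arrays and 2 Rpt3+/+ arrays. Gdf11, the close relative of Mstn, was not analysed here, and Inhbb and Inhbc were too dim to be tested.

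Among 12 measured genes for proteases, latency and matrix binding, Ltbp3 passed. It encodes a protein that anchors latent TGF-beta in the matrix, and it rose by 0.94 (adjusted p = 0.00639, limma) with 1 probe and by 1.06 with the second, and was at 0.41 with Actb scaling (adjusted p = 0.0946). The matrix proteoglycans Dcn (decorin) and Bgn (biglycan), which can bind ligands of this family, were at 0.35 and 0.40 with adjusted p = 0.0669 and 0.0589 (limma), both without overlap between groups. Among 5 other receptors and co-receptors 0 passed. The type I receptor of TGF-beta, Tgfbr1, was at 0.23 and the type II receptor, Tgfbr2, at -0.12.

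Of 13 other transducers and regulators 1 was higher and 3 were lower. Tgif1, a corepressor of Smad-driven transcription, gave 8.29, 7.86 and 8.31 in Rpt3-/- muscle and 6.90, 7.14 and 7.03 in Rpt3+/+ muscle and rose by 1.13 (adjusted p = 0.000922, limma), with 0.42 under Actb scaling (adjusted p = 0.0852). Zfyve9, also called SARA, holds Smad2 and Smad3 near the receptor; it fell by 0.57 (adjusted p = 0.0192, limma), its second probe was at -0.67, and the call was lost without Rpt3-/- replicate 1 (-0.59, adjusted p = 0.0555), without Rpt3-/- replicate 3 (-0.48, adjusted p = 0.0884) and without Rpt3+/+ replicate 3 (-0.58, adjusted p = 0.0766). Wwp1, a ubiquitin ligase that acts on receptors and Smads, fell 2.01-fold (adjusted p = 0.0173, limma), and its call was lost without Rpt3-/- replicate 1 (-0.87, adjusted p = 0.0948) and without Rpt3+/+ replicate 3 (-0.93, adjusted p = 0.0786).

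Ppm1a, a phosphatase of Smad2 and Smad3, gave probes that disagreed. The brighter was at -0.59 (adjusted p = 0.00983, limma) and the other at 0.51 (adjusted p over probes = 0.0418), both past the threshold. The mean over Ppm1a probes was -0.04, so its direction is not settled; without Rpt3+/+ replicate 3 the brighter probe was at -0.60 with adjusted p = 0.0525. Smad4, the common partner of Smad2 and Smad3, gave 7.96, 8.54 and 8.69 in Rpt3-/- muscle and 8.58, 9.18 and 9.03 in Rpt3+/+ muscle, with overlap, and its difference of -0.54 did not pass (adjusted p = 0.114, limma).

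Of 9 genes that Smad2 and Smad3 are known to regulate, 3 were higher (33.3%, where 12.7% of all tested genes were) and 6 did not pass. Whether Smad2 or Smad3 had a part in these differences was not tested. Cdkn1a, the gene for the cell cycle inhibitor p21, gave 10.51, 9.60 and 10.25 in Rpt3-/- muscle and 8.24, 8.28 and 8.08 in Rpt3+/+ muscle. It rose by 1.92 (adjusted p = 0.000260, limma), 3.79-fold, and passed under all 19 alternatives, Actb scaling included. Cdkn2b, the gene for p15, rose by 1.13 (adjusted p = 0.00103, limma) with a probe above background on 3 Rpt3-/- arrays and 2 Rpt3+/+ arrays, and Fn1, the gene for fibronectin, rose by 1.05 (adjusted p = 0.00281, limma). With Actb scaling Cdkn2b was at 0.38 (adjusted p = 0.126). Fn1 is also expressed by fibroblasts and macrophages, of whose markers 3 of 10 and 5 of 7 rose, and their part in its rise was not tested. Ccn2, the gene for connective tissue growth factor and a common readout of TGF-beta signaling, did not pass, at -0.22 (adjusted p = 0.300, limma).

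The BMP branch, which uses Smad1, Smad5 and Smad9 and competes with myostatin for type II receptors and Smad4, was described with 25 genes, 24 of them tested. Of these 1 was higher and 1 was lower (4.17% each, where 12.7% and 6.56% of all tested genes were), and 22 did not pass, with a median difference of 0.07. Id2, a target of BMP signaling, rose by 0.94 (adjusted p = 0.00169, limma) and was at 0.27 with Actb scaling (adjusted p = 0.264), whereas Id1 and Id3 were at 0.07 and 0.25 and did not pass. Fbxo30, a muscle ubiquitin ligase that BMP signaling holds down in mice, was at 0.55 without overlap and with adjusted p = 0.0560 (limma).

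**Figure D4:**
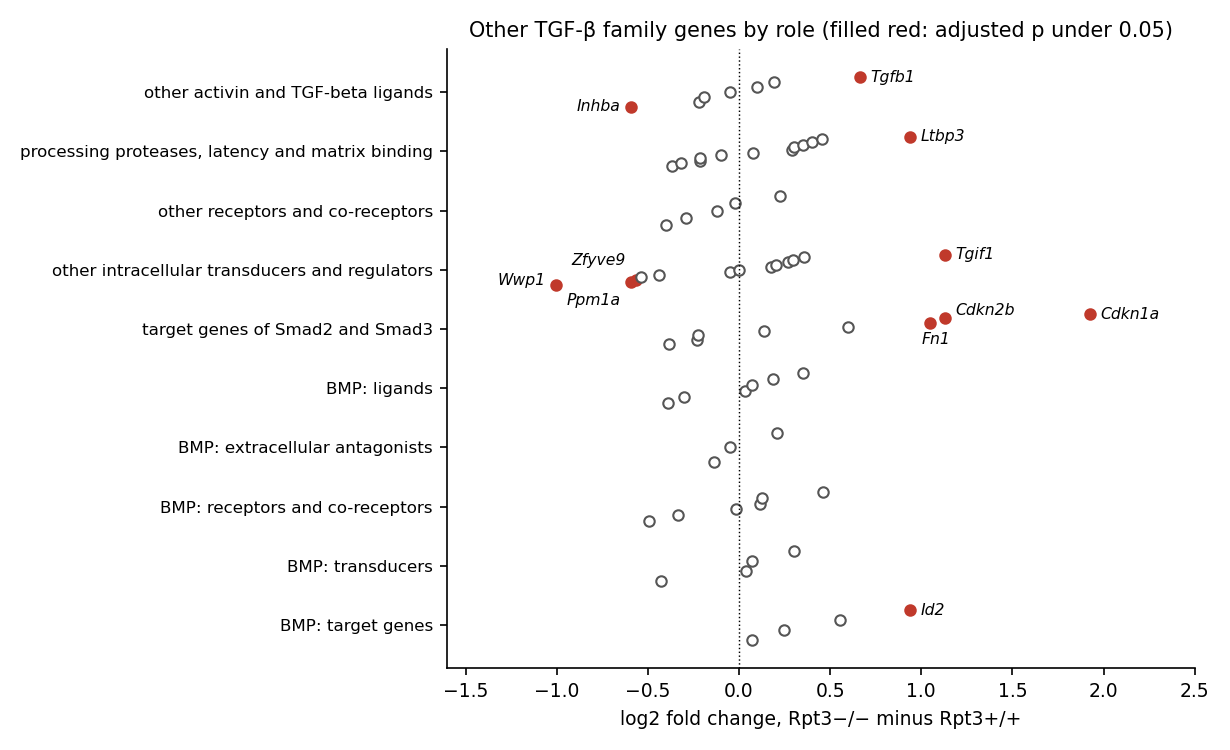
Log2 fold change, Rpt3-/- minus Rpt3+/+ (horizontal axis), of the other activin and TGF-beta pathway genes and BMP branch genes reported here, 1 circle per gene, grouped by role. Filled red circles with names passed an adjusted p of 0.05 in limma; they lie on both sides of 0, and Cdkn1a at 1.92 is farthest to the right.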

How the data were processed

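Total RNA of 6 mouse muscles (3 Rpt3-/-, 3 Rpt3+/+) was hybridised by the authors to single-color CodeLink arrays and read with CodeLink Expression Analysis 5.0.0.31312, per the file headers and the submitters' processing notes. The deposited scanner files hold spot and background intensity, and a deposited table holds the authors' normalized intensity, with a median of 89.0 on every array. Its columns share nearly the same distribution, as after quantile normalization, though no source used here names that step, and it served as an alternative, as log2(value + 50). Probes were named through the platform annotation and RefSeq accessions: 22150 of 34967 transcript probes carried 1 gene. Intensity was background-corrected with normexp (offset 50, which pulls differences of dim genes toward 0), quantile normalized and put on the log2 scale. The brightest probe of each gene above background on at least 3 arrays was tested with limma 3.58.1 (R 4.3.3, two-sided), with Benjamini-Hochberg adjustment over 14731 genes. The procedure was tested on simulated data. The number of arrays, 3 per group, limits the precision, and p-values measure the spread between mice as labelled. A gene dim on all arrays of a group was given a fold bound from the lowest signal above background on each array. Alternatives covered background correction, normalization, filter, probe choice, the model and leaving out each array. The 10 genes, the lists and the tests were chosen with earlier results of these data known. Named genes were the 10 members, Psmc4, Actb, up to 4 called genes of each role, and 5 genes most correlated with Mstn; Dcn, Bgn, Tgfbr1, Tgfbr2, Smad4, Ccn2, Id1, Id3, Fbxo30 and the marker genes were named after their values were seen. Protein was not analysed here, and single genes that were counted in the lists are not all reported here.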

Additional observations from a re-analysis of the deposited data

How the results depend on the processing

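Mstn kept its direction and call under all 19 alternatives. Centring arrays on their median moved the median of all genes to 0.05 and gave 1 member higher (Fst), 2 pathway genes lower and 4 BMP genes higher. Scaling to Actb moved that median to -0.72 and gave 8 members lower, 2 pathway genes higher and 28 lower, and 0 BMP genes higher and 18 lower. Array weights gave 2 members higher (Fst and Fstl3), 11 pathway genes higher and 10 lower, and 3 BMP genes higher and 4 lower. The test of the study's methods gave, without adjustment, 1 member higher and 5 BMP genes higher and 2 lower, and after adjustment 1 pathway gene lower, with Smad3 at adjusted p = 0.105. That adjusted test also ended the calls of Inhba (0.105), Tgfb1 (0.0869), Ltbp3 (0.0922), Zfyve9 (0.0811), Wwp1 (0.163) and Fn1 (0.0647). Unadjusted p-values from limma, added after seeing the data, gave 1 member higher, 11 pathway genes higher, and 5 BMP genes higher and 6 lower. Requiring signal above background on all 6 arrays gave 2 BMP genes higher and left Smad3 untested, and the mean of probes gave 2 BMP genes lower. For each of these the cause was not tested.

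Leaving out 1 array gave 0 to 1 members higher and 1 to 3 lower, 5 to 9 pathway genes higher and 0 to 9 lower, 1 to 3 BMP genes higher and 1 to 3 lower, Mstn between -1.74 and -1.50 and Fstl1 between -0.40 and 0.21. No pathway gene was lower without Rpt3+/+ replicate 3, where 389 of all genes were lower. Without Rpt3+/+ replicate 1, 9 pathway genes and 1445 of all genes were lower. Directions turned for Fstl1, at 0.062 with median centring, 0.03 without Rpt3-/- replicate 1 and 0.21 without Rpt3+/+ replicate 2, and with Actb scaling for Fst (-0.32), Fstl3 (-0.56) and Smad2 (-0.58). Deviations of same-numbered arrays from their group means correlated at r = 0.126, -0.438 and 0.098, and those of other pairs at -0.485 to 0.471. With 3 arrays per group this check cannot settle whether the numbers pair the mice. With the replicate block Mstn stayed at -1.62 (adjusted p = 3.18e-05), BMP genes higher came to 2, and no call of a member changed. Over all genes the count was 1870 higher and 967 lower, against 1722 and 873 with the block, 3007 and 2361 with array weights, 940 and 427 with the adjusted test of the methods, and 329 and 10328 with Actb scaling. The spread of 3 arrays per group, and signals near background for Smad3, limit what could be resolved.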
